A study of Mus musculus with 18 samples.

Results

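Plasmacytoid dendritic cells (pDCs) kept in culture with the vehicle alone were compared between 16 h and 6 h. All 3 libraries labelled vehicle 16 h were set against all 3 labelled vehicle 6 h, which makes 6 of the 18 libraries of the series, and every gene of the deposited count table was considered. Of 54532 genes, 14876 had enough counts over all 18 libraries, imiquimod included, to be tested. Among only the 6 libraries compared, 13657 passed the same filter. Marrow cells of wild-type C57BL/6 mice had spent 7 days with Flt3 ligand (80 ng/mL), and B220-positive cells were then selected on beads, with a stated routine purity of 80%. Vehicle is named LAL (Limulus amebocyte lysate) in the series, and the labels do not say whether the lysate itself or a diluent was meant. The groups used were vehicle at 16 h and at 6 h, imiquimod (an agonist of the RNA sensor TLR7, 2.5 µg/mL) at 16 h and at 6 h for the same interval under stimulation, and vehicle at 0 h for the level before it, each with 3 libraries. All of them share the strain, the genotype, the Flt3 ligand culture and the B220 enrichment.

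pDCs circulate as small round cells that sense nucleic acids in endosomes through TLR7 and TLR9 and are known for secreting type I interferon. Flt3 ligand drives dividing bone marrow progenitors to become pDCs and conventional dendritic cells (cDCs), so a Flt3 ligand culture holds cells at several stages. Mature dendritic cells are known to leave the cell cycle and to switch on a migratory programme that includes the chemokine receptor Ccr7 and the actin-bundling protein fascin, with or without a microbial signal.

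Directional total RNA depleted of rRNA was sequenced in pairs of 75 nt reads. Total counts ran from 10609741 to 11237396 in the vehicle 16 h libraries and from 11673965 to 12402967 in the vehicle 6 h libraries. The vehicle 6 h libraries differed more among themselves, with a chi-square per degree of freedom between library pairs of 1.45 to 1.64 at 16 h and 4.21 to 10.5 at 6 h. Messenger RNAs of the mitochondrial genome took 0.511% to 0.524% of counts at 16 h and 0.292% to 0.507% at 6 h, with the lowest share in vehicle 6 h replicate 2. No pair of libraries was close enough to count as 1 library. No label ties the 3 libraries of a time to separate mice or culture wells, so p-values reflect how far these libraries vary and that variation may be technical. Levels are counts scaled to library size with TMM, written CPM, means are given ± SD over n = 3 libraries, and fold changes are log2 values of 16 h over 6 h from edgeR's quasi-likelihood test with its standard error (SE). Genes with a Benjamini-Hochberg adjusted p under 0.05 over all tested genes were called.

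The defining pDC markers were abundant. Siglech, the pDC lectin receptor gene, had 1636 CPM at 16 h and 1154 CPM at 6 h, and Tcf4, the master transcription factor of the lineage, had 1611 CPM at 16 h and 1349 CPM at 6 h. Markers of T cells, NK cells and red cells were at or near 0: over 3 libraries, Cd3e had 4 counts at 16 h and 5 at 6 h, Ncr1 had 2 and 2, and Hbb-bs had 1 and 0. For macrophages and neutrophils, C1qa had 3 counts at 16 h and 2 at 6 h, S100a8 had 7 and 2, and Mpo had 3 and 10. Markers of other cells were present at low level, with 891 counts of the macrophage gene Adgre1 at 16 h and 1077 at 6 h, and 185 and 483 of the cDC1 gene Xcr1. Clec9a, another cDC1 gene, was more abundant, with 4697 counts at 16 h and 4111 at 6 h.

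Between 6 and 16 h without imiquimod, 2176 genes rose and 2294 fell, 14.6% and 15.4% of those tested and 30.0% together. Counts within gene lists are to be read beside these shares. Among the lists below, those of B cell, interferon-stimulated, Toll-like receptor, Notch, apoptosis, immediate-early and p53 genes lie near 30.0% called. Most changes were small, since 296 genes rose at least 2-fold (1.99%) and 337 fell at least 2-fold (2.27%), 4.26% together. For 5569 genes (37.4%) the 3 libraries of one time all lay above the 3 of the other. Mitosis, DNA replication and histone genes made up 105 of the 337 genes that fell at least 2-fold, 31.2%. Scaled by library totals instead of TMM, 36.3% of the calls were higher, against 48.7% with TMM. Proliferation genes fell as a body, while of the genes tied to maturation the migratory set rose and Cd40, Cd80 and Cd86 differed by small amounts, 1 higher, 1 lower and 1 not called.

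The steepest rises joined cytoskeletal, transport and immune genes. Ramp3, which encodes a partner protein of calcitonin family receptors and is 1 of the migratory dendritic cell genes below, had 10.5, 10.7 and 8.96 CPM in the vehicle 16 h libraries, against 0.622, 0.771 and 0.410 CPM in the vehicle 6 h libraries. Its log2 fold change was 4.03 (SE 0.22, adjusted p = 1.02e-27), from 338 counts over the 3 libraries at 16 h and 23 at 6 h. Slc4a8, a bicarbonate transporter gene on chromosome 15, 100761747 to 100823968 (mm10), had 30.1, 26.9 and 26.9 CPM in the vehicle 16 h libraries, against 1.87, 2.31 and 1.97 CPM in the vehicle 6 h libraries. Its mean stood at 2.06, 2.05 and 27.96 CPM at 0, 6 and 16 h, so that the rise of 3.76 (SE 0.13, adjusted p = 1.55e-38) lay in the later interval. Synpo2, the gene of an actin-associated protein, rose by 3.19 (SE 0.12), and Slco5a1, of the organic anion transporter family, by 3.09 (SE 0.11). Mmp25, a membrane-anchored metalloproteinase gene, rose by 2.73 (SE 0.072) and Adgrg6, an adhesion G protein-coupled receptor gene, by 2.72 (SE 0.13). The other genes of the 12 steepest rises, Gbp2, Fscn1, Ccl5, Il12b, Anxa3 and Serpinb6b, are described with their groups.

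**Figure D1:**
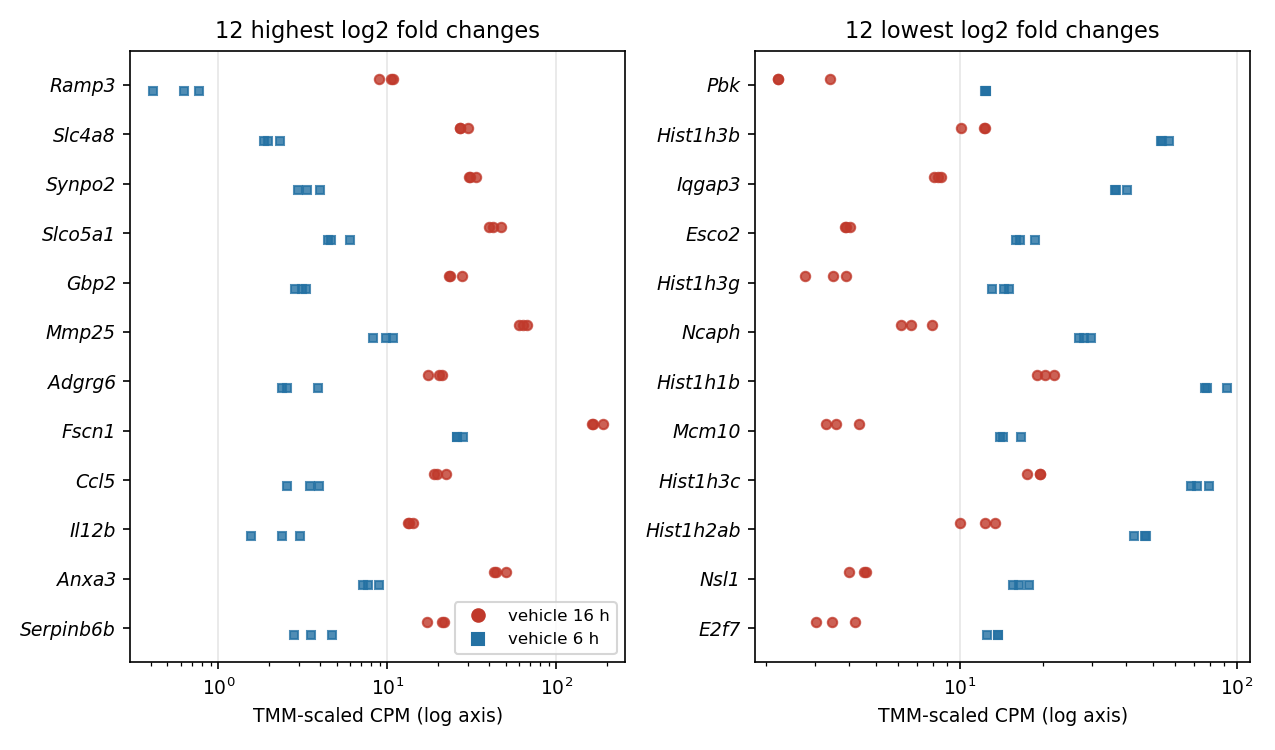
CPM of each library on a log axis for the 12 genes with the highest and the 12 with the lowest log2 fold change among called genes with a mean of at least 10 CPM at the higher time, circles for vehicle 16 h and squares for vehicle 6 h. The rule for these genes asked for groups that do not overlap, and the left panel spans Ramp3 (4.03) to Serpinb6b (2.45), the right panel Pbk (-2.24) to E2f7 (-1.90).

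Genes of mitosis fell together. Of 50 listed genes, all tested, 49 fell, 45 of them at least 2-fold, with a median log2 fold change of -1.53 against -0.0013 over all tested genes. Mki67 (chromosome 7, 135689784 to 135716361, mm10), the gene of the proliferation antigen Ki-67, had 139, 139.9 and 144 CPM in the vehicle 16 h libraries, against 442, 385 and 431 CPM in the vehicle 6 h libraries. Its log2 fold change was -1.57 (SE 0.039, adjusted p = 2.74e-45), a level 2.98-fold lower at 16 h, and the groups did not overlap. Top2a (topoisomerase II alpha, which untangles sister chromatids) had 90.6, 98.7 and 102 CPM in the vehicle 16 h libraries, against 352, 334 and 344 CPM in the vehicle 6 h libraries, a log2 change of -1.82 (SE 0.039, adjusted p = 1.67e-53). In bulk RNA, fewer cycling cells and less of this RNA per cell cannot be told apart.

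The genes that fell act in chromosome condensation, at the spindle and kinetochore and at mitotic entry. Ncaph, a condensin subunit that compacts chromosomes, had 6.16, 7.98 and 6.70 CPM in the vehicle 16 h libraries, against 28.1, 29.8 and 27.1 CPM in the vehicle 6 h libraries, a log2 change of -2.02. Among spindle and kinetochore genes, Spc25 of the Ndc80 complex changed by -1.86 (SE 0.13), Nusap1, a microtubule binding protein gene, by -1.88 (SE 0.075), and Nsl1 of the Mis12 complex, which is outside the list, by -1.92 (SE 0.12). The cyclin genes Ccna2 and Ccnb1, which drive entry into mitosis, changed by -1.83 (SE 0.069) and -1.32 (SE 0.088). Pbk, a mitotic kinase gene outside the list, had 2.61 ± 0.683 CPM at 16 h and 12.4 ± 0.0944 CPM at 6 h, a log2 difference of -2.24 (SE 0.15, adjusted p = 3.7e-22), the lowest in the plot of single genes. Also outside the list, Iqgap3, a scaffold gene of dividing cells, changed by -2.18 (SE 0.089) and Esco2, which acetylates cohesin in S phase, by -2.12 (SE 0.13). Pttg1, the securin gene, was the only listed member not called, with 5.30 CPM at 16 h and 6.20 CPM at 6 h and an adjusted p of 0.28.

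The fall came after 6 h for the mitosis genes. Mki67 averaged 449, 419.5 and 141 CPM at 0, 6 and 16 h in vehicle, and Top2a 339.8, 343 and 97.03 CPM at 0, 6 and 16 h. For 24 of the 50 genes the 6 h level was higher than at 0 h and for 4 lower (52.9% of all tested genes were called in that comparison, which shares the vehicle 6 h libraries). Setting 16 h against 0 h, which shares the vehicle 16 h libraries, 49 of 50 were lower, with 58.4% of all tested genes called.

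DNA replication genes fell less steeply and had started earlier. Of 50 listed genes, all tested, 41 fell between 6 and 16 h, 13 of them at least 2-fold, and 9 were not called, with a median of -0.69. Mcm10, which helps to activate the loaded replicative helicase, had 4.32, 3.28 and 3.57 CPM in the vehicle 16 h libraries, against 16.6, 14.3 and 13.95 CPM in the vehicle 6 h libraries, giving a log2 change of -2.01 (SE 0.13, adjusted p = 9.24e-24). Rrm2, the ribonucleotide reductase subunit that limits nucleotide supply, had 9.46, 9.93 and 10.96 CPM in the vehicle 16 h libraries, against 27.5, 27.5 and 27.6 CPM in the vehicle 6 h libraries, a change of -1.44 (SE 0.087, adjusted p = 8.81e-25). Neither gene's groups overlapped. Mcm5, a subunit of the helicase itself, averaged 92.9, 46.7 and 21.8 CPM at 0, 6 and 16 h in vehicle, so that both intervals took part in its decline. Pcna, the sliding clamp, averaged 131, 76.4 and 59.5 CPM at 0, 6 and 16 h, with a smaller late change of -0.36. Cdc45 and Gins2, partners of that helicase, changed by -1.40 (SE 0.14) and -1.31 (SE 0.23). Between 0 and 6 h, 46 of the 50 genes had fallen, with a median of -0.82, and none had risen. Over all 14876 tested genes, 4003 had fallen and 3868 had risen in that earlier interval.

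Replication-dependent histone genes, transcribed in S phase to package new DNA, fell as well. Of 67 listed genes 56 were tested, 54 fell and 47 of them at least 2-fold, with a median of -1.52. Between 0 and 6 h, 32 of the 56 had fallen and 2 had risen, with a median of -0.27, where 4003 of all 14876 tested genes had fallen. Hist1h3b had 10.1, 12.3 and 12.3 CPM in the vehicle 16 h libraries, against 53.5, 56.8 and 53.8 CPM in the vehicle 6 h libraries, a change on the log2 scale of -2.24 (SE 0.079, adjusted p = 7.22e-39). Hist1h1b, a linker histone gene, had 20.4, 18.98 and 21.8 CPM in the vehicle 16 h libraries, against 76.7, 92.7 and 77.97 CPM in the vehicle 6 h libraries, a change of -2.01 (SE 0.088, adjusted p = 1.47e-16). Hist1h2ah changed by -2.28 (SE 0.25), Hist1h3g by -2.06 (SE 0.15), Hist1h3c by -1.96 (SE 0.068) and Hist1h2ab by -1.93 (SE 0.082). Single histone genes are near-identical copies whose reads may have been split or shared in counting, so the value of any 1 of them is uncertain. Hist2h2be and Hist3h2a, the tested members that were not called, had 31.8 CPM at 16 h and 32.6 CPM at 6 h, and 14.1 CPM at 16 h and 15.6 CPM at 6 h.

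Regulators of the cell cycle moved little and both ways. Of 30 CDK inhibitors, D cyclins, pocket proteins and related genes, 10 rose, 10 fell and 10 were not called, with a median of 0.03, and with library totals 6 rose. Mxd1, an antagonist of Myc at shared DNA sites, had 80.9, 73.7 and 76.9 CPM in the vehicle 16 h libraries, against 38.03, 41.1 and 41.9 CPM in the vehicle 6 h libraries, a log2 change of 0.94 (SE 0.051, adjusted p = 4.16e-27). Cdkn1a, the p21 inhibitor gene, rose by 0.40 (SE 0.071). Cdkn1b, the p27 inhibitor gene, had 154 CPM at 16 h and 145 CPM at 6 h and was not called (adjusted p = 0.0919). Cdkn2c, an inhibitor of Cdk4 and Cdk6, fell to 17.4 CPM at 16 h, against 33.9 CPM at 6 h (-0.96, SE 0.083). Rbl1 (p107) changed by -0.59 (SE 0.061), Ccnd2 (cyclin D2) by -0.29 (SE 0.059) and, outside the list, E2f7, a repressor of E2F targets, by -1.90 (SE 0.14). Myc averaged 3.59 CPM at 16 h and 4.33 CPM at 6 h and was not called (adjusted p = 0.239).

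Promoters of the genes that fell are shown because known cell cycle elements can be read in them. In many vertebrate cell cycle genes a CHR element, bound by the DREAM and B-Myb complexes, lies at the transcription start a short distance downstream of CCAAT boxes bound by NF-Y, while replication genes carry E2F sites. RefSeq sequence of GRCm38.p6 (mm10) is printed for the 3 mitosis genes with the lowest log2 fold change whose window holds CCAAT and a CHR form, from 200 bases before to 30 after the start, 5′ to 3′ on the gene's strand. Capitals mark the letters CCAAT and the CHR forms with the letters TTTGAA and with the palindrome TTCGAA, each on either strand, where the other strand reads as the reverse complement. Beside Spc25 and Top2a these are Kif11, a spindle motor gene that changed by -1.79.
Spc25 (chr2:69206184-69206413, minus strand): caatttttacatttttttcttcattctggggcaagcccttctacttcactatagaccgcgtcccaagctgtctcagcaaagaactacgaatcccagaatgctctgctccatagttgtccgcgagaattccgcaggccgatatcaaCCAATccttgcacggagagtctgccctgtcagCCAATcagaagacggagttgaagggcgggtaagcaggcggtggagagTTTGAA
Top2a (chr11:99024160-99024389, minus strand): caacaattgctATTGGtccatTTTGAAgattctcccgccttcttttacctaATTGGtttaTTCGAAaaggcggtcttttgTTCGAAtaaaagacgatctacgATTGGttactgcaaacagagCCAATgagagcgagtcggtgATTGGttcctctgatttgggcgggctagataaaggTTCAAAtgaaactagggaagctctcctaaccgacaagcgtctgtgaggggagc
Kif11 (chr19:37376182-37376411, plus strand): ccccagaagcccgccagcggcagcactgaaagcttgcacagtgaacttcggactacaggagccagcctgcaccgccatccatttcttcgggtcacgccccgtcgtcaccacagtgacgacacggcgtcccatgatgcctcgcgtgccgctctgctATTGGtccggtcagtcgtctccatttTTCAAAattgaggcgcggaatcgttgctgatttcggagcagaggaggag
In the Spc25 window, CCAAT boxes lie 55 and 23 bases before the start and TTTGAA 24 bases after it. In Kif11, ATTGG lies 45 bases before the start and TTCAAA 19 bases before it. Top2a holds several of each. Matches of these 3 motifs cannot share a start.

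Windows from 250 bases before to 50 after the start were searched on both strands for 41 of the 50 mitosis genes (42 windows). CCAAT was found in 76.2% of them, TTTGAA in 71.4%, TTCGAA in 11.9%, and CCAAT together with either CHR form in 71.4%. In the 12464 windows of all tested genes these shares were 37.7%, 12.5%, 2.08% and 5.86%, and over all 32851 RefSeq windows they were 37.4%, 17.9%, 1.56% and 7.52%. Replication genes held the E2F letters TTTGGCGC in 16.7% and TTCCCGC in 37.5% of 48 windows, against 0.979% and 8.19% of windows of tested genes and 0.514% and 4.60% of all windows. Uhrf1, the partner of DNA methyltransferase at replication forks, had the lowest log2 fold change among replication genes with such a window (-1.28), with 15.4 CPM at 16 h and 37.4 CPM at 6 h. In its window, printed in the same way, capitals mark TTCCCGC on either strand and no other letters.
Uhrf1 (chr17:56303137-56303366, plus strand): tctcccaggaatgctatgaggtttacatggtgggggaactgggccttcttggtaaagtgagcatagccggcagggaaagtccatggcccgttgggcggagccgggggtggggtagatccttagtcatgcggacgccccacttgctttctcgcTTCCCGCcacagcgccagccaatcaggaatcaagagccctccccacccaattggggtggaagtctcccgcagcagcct
Over all tested genes with a window, 1779 of 9841 fell (18.1%). Of the 686 with CCAAT and a CHR form in 1 window 182 fell (26.5%), and of the 651 of these outside the mitosis, replication and histone lists 148 fell (22.7%, against 17.5% of all genes outside those lists). Also outside those lists, 233 of 1041 genes with either E2F form fell (22.4%). So did 18.6% of 3379 with CCAAT and neither CHR form, and 19.2% of 840 with a CHR form and no CCAAT. A match is a description of letters in a window and not a binding site.

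**Figure D2:**
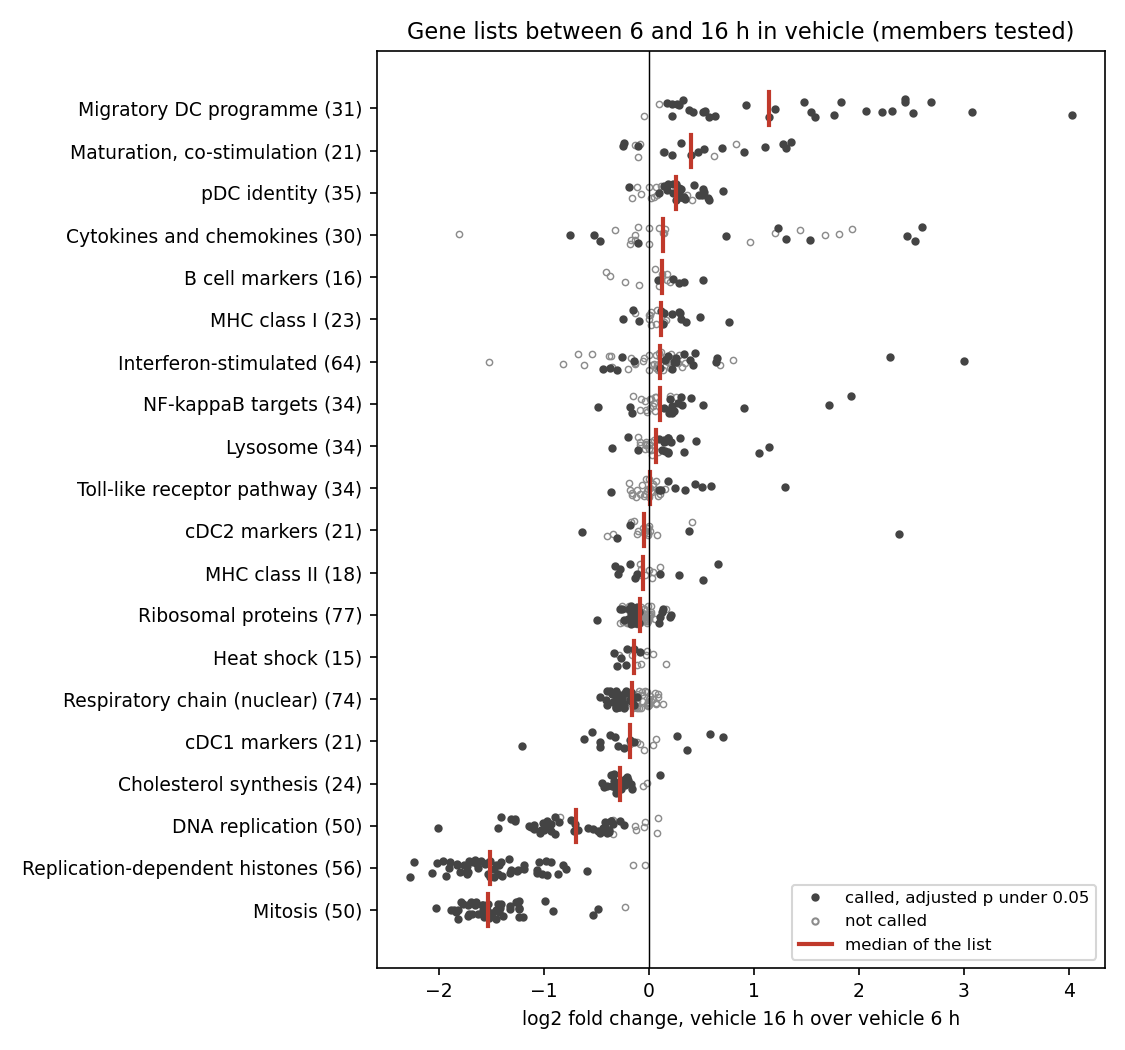
Log2 fold change of vehicle 16 h over vehicle 6 h for every tested member of 20 gene lists, filled where called, with a bar at each list's median and the number of members in parentheses. Medians run from -1.53 for mitosis to 1.14 for the migratory dendritic cell programme, and most lists lie near 0.

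The migratory dendritic cell programme rose. Of 33 listed genes 31 were tested, 29 rose, 16 of them at least 2-fold, none fell, and the median log2 fold change was 1.14. Fscn1 (ENSMUSG00000029581.14, chromosome 5, 142960343 to 142973185, mm10), the gene of fascin, which bundles actin in the veils of mature dendritic cells, had 187, 164 and 162 CPM in the vehicle 16 h libraries, against 25.7, 25.7 and 28.1 CPM in the vehicle 6 h libraries. The change was 2.69 (SE 0.053, adjusted p = 2.17e-50), a level 6.45-fold higher at 16 h, and it followed an earlier rise, with 6.90, 26.5 and 171 CPM at 0, 6 and 16 h. Ccr7 (chromosome 11, 99144196 to 99155077), the receptor that guides dendritic cells into lymphatics, had 157, 142 and 139 CPM in the vehicle 16 h libraries, against 48.3, 49.3 and 48.4 CPM in the vehicle 6 h libraries, a log2 difference of 1.58 (SE 0.046, adjusted p = 1.57e-44). Both genes showed 16 h libraries far above 6 h libraries with little spread within a time.

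Apol7c, an apolipoprotein L family gene of mature dendritic cells, averaged 5.78, 70.5 and 296 CPM at 0, 6 and 16 h and rose in the late interval by 2.07. Anxa3, an annexin gene, had 50.2, 42.7 and 43.8 CPM in the vehicle 16 h libraries, against 8.87, 7.71 and 7.14 CPM in the vehicle 6 h libraries, a change of 2.52 (SE 0.088). Serpinb6b, a serpin gene, had 21.04, 21.7 and 17.2 CPM in the vehicle 16 h libraries, against 2.80, 3.55 and 4.68 CPM in the vehicle 6 h libraries, a change of 2.45 (SE 0.12). Cacnb3, a calcium channel subunit gene found in mature dendritic cells, rose by 1.55 (SE 0.058), Socs2, a cytokine signalling inhibitor gene, by 1.20 (SE 0.088) and Cd63, a tetraspanin gene, by 1.14 (SE 0.10). Apol7c, Cacnb3 and Socs2 were named after their values were seen, and so were both members that were not called. Of these, Ccl22, a chemokine gene of mature dendritic cells, averaged 4.97, 67.5 and 72.3 CPM at 0, 6 and 16 h, so that its rise lay before 6 h. Tmem176b, an ion channel gene of immature dendritic cells, had 68.2 CPM at 16 h and 70.5 CPM at 6 h. In imiquimod Fscn1 averaged 1547 CPM at 16 h and 537 CPM at 6 h, Ccr7 1144 CPM at 16 h and 1354 CPM at 6 h and Anxa3 47.7 CPM at 16 h and 27.4 CPM at 6 h.

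Co-stimulation and antigen presentation did not move as a block. Of 23 listed maturation and co-stimulation genes 21 were tested, 12 rose, 3 fell and 6 were not called, with a median of 0.40. Il15ra, which presents the Il15 cytokine on the surface, had 13.6, 11.8 and 14.5 CPM in the vehicle 16 h libraries, against 4.98, 5.71 and 4.84 CPM in the vehicle 6 h libraries, giving a log2 change of 1.36 (SE 0.13, adjusted p = 1.02e-14). Il15 itself rose by 1.31 (SE 0.21), and the TNF receptor family genes Tnfrsf9 and Tnfrsf4 by 1.28 (SE 0.18) and 1.11 (SE 0.17). Cd83, a maturation marker, rose by 0.47 (SE 0.049) and Cd274, the PD-L1 gene, by 0.69 (SE 0.086). The classic co-stimulatory genes Cd40, Cd80 and Cd86 showed small differences. Cd40, the receptor for T cell help, had 15.4, 17.8 and 16.4 CPM in the vehicle 16 h libraries, against 14.2, 14.8 and 16.3 CPM in the vehicle 6 h libraries, values that overlapped, and was not called (adjusted p = 0.242). Cd80 rose by 0.31 (SE 0.092, adjusted p = 0.00575), and without vehicle 16 h replicate 1 it was not called (adjusted p = 0.0861). Cd86 fell by 0.24, with 22.3, 21.1 and 22.4 CPM in the vehicle 16 h libraries, against 25.05, 27.5 and 25.4 CPM in the vehicle 6 h libraries (adjusted p = 0.00552), and without vehicle 6 h replicate 2 it was not called (adjusted p = 0.0535). The other members that fell were Cd48 (-0.24) and Slamf7 (-0.10), a pair of SLAM family genes named because the count was small. The call of Slamf7 was lost without vehicle 16 h replicate 1 or 3 and without vehicle 6 h replicate 1 (adjusted p from 0.0546 to 0.0843), with DESeq2 size factors (0.0502), in DESeq2's Wald test (0.0818) and among only the libraries compared (0.0825).

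MHC class II genes were nearly level, and the classical beta chain genes fell. Of 18 genes, all tested, 4 rose, 6 fell and 8 were not called, with a median of -0.06. H2-Ab1, a class II beta chain gene, had 558, 517 and 547 CPM in the vehicle 16 h libraries, against 615, 674 and 675 CPM in the vehicle 6 h libraries, a change on the log2 scale of -0.28 (SE 0.036, adjusted p = 2.47e-09). H2-Eb1, another beta chain gene, changed by -0.30 (SE 0.071). H2-Oa, a subunit of the modulator of peptide loading, rose by 0.66 (SE 0.076) and H2-Eb2, a class II-like beta chain gene, by 0.51 (SE 0.083). Ciita, the class II transactivator, was higher by 0.11 (SE 0.033, adjusted p = 0.0101). That call was lost with library totals (adjusted p = 0.104), among only the libraries compared (0.0544) and without vehicle 16 h replicate 1 or 3 (0.101 and 0.0608). Of 23 MHC class I genes, all tested, 10 rose and 3 fell, with a median of 0.11. Among them Nlrc5, the class I transactivator, rose by 0.49 (SE 0.041) and B2m, the light chain gene, by 0.35 (SE 0.038). H2-Q6 and H2-Q7, class Ib genes with near-identical copies and so uncertain values, changed by 0.76 and 0.30.

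Most cytokine genes were not called. Of 37 listed cytokines and chemokines 30 were tested, 7 rose, 4 fell and 19 were not called. Of the 7 that rose, 6 did so at least 2-fold, where 1.99% of all tested genes rose that far. The filter for testing took in the imiquimod libraries, and among only the libraries compared 6 of the listed genes rose and 3 fell. Ccl5, a chemokine for T cells, had 22.1, 19.7 and 18.8 CPM in the vehicle 16 h libraries, against 3.50, 2.54 and 3.94 CPM in the vehicle 6 h libraries, a log2 change of 2.60 (SE 0.12, adjusted p = 5.17e-32). Il12b, which encodes the p40 subunit of the T cell polarising cytokine interleukin-12, had 13.4, 14.2 and 13.2 CPM in the vehicle 16 h libraries, against 3.03, 2.39 and 1.56 CPM in the vehicle 6 h libraries, a change of 2.53 (SE 0.13, adjusted p = 5.65e-28). For both genes every 16 h library lay above every 6 h library. Il1b rose by 1.53 (SE 0.33) to 4.52 CPM, a level close to the 5.15 CPM of 0 h. Il6 rose by 2.46 (SE 0.55) but averaged only 0.772 CPM at 16 h and 0.133 CPM at 6 h. Tnf fell by 0.75 (SE 0.21, adjusted p = 0.00275), with 1.56, 1.95 and 3.22 CPM in the vehicle 16 h libraries, against 4.12, 3.47 and 3.86 CPM in the vehicle 6 h libraries, and without vehicle 16 h replicate 1 it was not called (adjusted p = 0.0509). Without the same library 1 of the 30 genes fell. None of 19 type I and III interferon genes had enough counts to be tested, with 1 count in all over the 6 libraries.

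More interferon-stimulated genes rose than fell, and a pair of guanylate-binding protein genes rose at least 2-fold. Of 65 listed genes 64 were tested, 16 rose, 5 fell and 43 were not called, with a median of 0.11 (0.05 without vehicle 16 h replicate 3). Over all tested genes 14.6% rose and 15.4% fell. Gbp2 (chromosome 3, 142620602 to 142638008, mm10), a GTPase gene of interferon-gamma responses that acts on vacuoles of pathogens, had 27.7, 23.1 and 23.6 CPM in the vehicle 16 h libraries, against 3.11, 2.85 and 3.28 CPM in the vehicle 6 h libraries, a log2 difference of 3.003 (SE 0.11, adjusted p = 1.37e-36). Gbp5, of the same family, had 18.6, 17.8 and 16.2 CPM in the vehicle 16 h libraries, against 3.73, 3.55 and 3.37 CPM in the vehicle 6 h libraries, a change of 2.30 (SE 0.12, adjusted p = 2.46e-29). Neither was called between 0 and 6 h, where Gbp2 averaged 3.07, 3.08 and 24.8 CPM at 0, 6 and 16 h and Gbp5 3.37, 3.55 and 17.5 CPM at 0, 6 and 16 h. Gbp genes are similar in sequence, and reads shared between them could not be checked. Mx1, an antiviral GTPase gene, had 55.5, 63.7 and 69.6 CPM in the vehicle 16 h libraries, against 44.96, 38.4 and 37.3 CPM in the vehicle 6 h libraries, a change of 0.65 (SE 0.077), and Herc6, a ligase gene for Isg15, rose by 0.64 (SE 0.079). Irf7, the factor that amplifies interferon genes, rose by 0.44 (SE 0.12, adjusted p = 0.0129), with 45.8, 48.4 and 64.8 CPM in the vehicle 16 h libraries, against 37.3, 38.6 and 41.3 CPM in the vehicle 6 h libraries, the highest value in vehicle 16 h replicate 3. Without that library 10 of the 64 genes rose, and 2 or 3 fell without vehicle 16 h replicate 1 or without vehicle 6 h replicate 2 or 3. Isg15 averaged 1.13 CPM at 16 h and 1.48 CPM at 6 h and was not called (adjusted p = 0.37). The interferon-stimulated response element, searched as TTTC, 2 free bases and TTTC (on the other strand GAAA, 2 free bases and GAAA), was found in 53.4% of 58 windows of these genes, against 3.35% of windows of tested genes and 3.44% of all windows.

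NF-kappaB target genes that passed the test mostly rose. Of 34 genes, all tested, 15 rose, 3 fell and 16 were not called, with a median of 0.11. Traf1, an adaptor of TNF receptors, had 80.5, 74.04 and 73.1 CPM in the vehicle 16 h libraries, against 41.8, 41.3 and 38.1 CPM in the vehicle 6 h libraries, giving a log2 change of 0.91 (SE 0.049, adjusted p = 3.01e-27). Gadd45b, a stress response gene, rose by 0.51 (SE 0.064) and Src, the kinase gene, by 1.72 (SE 0.25) at a low level. Of 35 listed genes of the Toll-like receptor pathway 34 were tested, 9 rose and 1 fell (3 without vehicle 6 h replicate 2, 2 without vehicle 16 h replicate 3, and with library totals 7 rose and 3 fell). Called in either direction were 30.0% of all tested genes, near the share of this list. Tlr7, the receptor for imiquimod, had 270.2, 269 and 278 CPM in the vehicle 16 h libraries, against 187, 159 and 197 CPM in the vehicle 6 h libraries, a change of 0.59 (SE 0.055, adjusted p = 9.6e-09), while Tlr9, the DNA sensor, rose by 0.18 (SE 0.038).

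pDC identity genes rose by small amounts. Of 35 genes, all tested, 23 rose, 1 fell and 11 were not called, with a median of 0.26, and none changed 2-fold. Between 0 and 6 h 16 of the 35 had fallen and 6 had risen, with a median of -0.11. At 16 h against 0 h 14 were higher and 11 lower, with a median of 0.05. Of all tested genes, 52.9% and 58.4% were called in these comparisons, which share libraries with the main one. Siglech (chromosome 7, 55768178 to 55778925) had 1650, 1624 and 1633 CPM in the vehicle 16 h libraries, against 1165, 1134 and 1164 CPM in the vehicle 6 h libraries, a change on the log2 scale of 0.50 (SE 0.029, adjusted p = 1.59e-25). Ccr9, a homing receptor of pDCs for the gut, had 1044, 1032 and 1052 CPM in the vehicle 16 h libraries, against 666, 598 and 648 CPM in the vehicle 6 h libraries, a change of 0.71 (SE 0.034, adjusted p = 4.2e-29). Over the 3 times Ccr9 averaged 1019, 637 and 1043 CPM at 0, 6 and 16 h, so that its late rise brought it back near the 0 h level. Cd300c, a receptor gene of the Cd300 family, rose by 0.58 (SE 0.045) and Zfp521, a zinc finger factor gene, by 0.53 (SE 0.091). Spib, an Ets family factor of pDCs, rose by 0.31 (SE 0.037) and Tcf4 by 0.26 (SE 0.034). Irf8, needed for pDC and cDC1 development, had 2378 CPM at 16 h and 2261 CPM at 6 h and was not called (adjusted p = 0.0705). Flt3, the receptor of the culture's growth factor, had 575 CPM at 16 h and 560.2 CPM at 6 h and Itgax, the CD11c gene, 383 CPM at 16 h and 363 CPM at 6 h, neither called (adjusted p = 0.396 and 0.0757). Bst2, a surface antigen of pDCs, had 253, 259 and 255 CPM in the vehicle 16 h libraries, against 225, 275 and 243 CPM in the vehicle 6 h libraries, values that overlapped (adjusted p = 0.504). Ly6d, a surface antigen of lymphoid progenitors and pDC precursors, was the single member that fell (-0.19, SE 0.039), and 2 fell without vehicle 16 h replicate 1 or vehicle 6 h replicate 1.

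Of the other cell types, cDC1 genes fell more often than they rose. The cDC1 list summed to 4711 to 4756 CPM at 16 h and 4787 to 4912 CPM at 6 h, and of 21 genes, all tested, 4 rose and 11 fell. Xcr1, the chemokine receptor that defines cDC1, had 4.96, 5.05 and 6.44 CPM in the vehicle 16 h libraries, against 13.4, 9.49 and 15.4 CPM in the vehicle 6 h libraries, a log2 change of -1.21 (SE 0.14, adjusted p = 9.84e-12). Naaa, a lipid amidase gene of cDC1, changed by -0.61 (SE 0.045) and Batf3, a cDC1 factor, by 0.70 (SE 0.13). Of 21 cDC2 genes, all tested, 2 rose, 1 of them at least 2-fold, and 3 fell, with log2 fold changes from -0.63 to 2.39. The cDC2 list summed to 3705 to 3826 CPM at 16 h and 3299 to 3462 CPM at 6 h. Of its chemokine receptor genes, Cx3cr1 changed by -0.63 (SE 0.081) and Ccr2 by 0.39 (SE 0.033). Of 22 listed monocyte and macrophage genes 18 were tested, 6 rose and 3 fell (none without vehicle 16 h replicate 2, and 1 without vehicle 16 h replicate 1 or vehicle 6 h replicate 2), with sums of 2658 to 2694 CPM at 16 h and 2074 to 2218 CPM at 6 h. The lysosomal protease gene Ctsl, a member of that list, rose by 0.45 (SE 0.045). Of 20 listed B cell genes 16 were tested, 5 rose (3 without vehicle 16 h replicate 1 or vehicle 6 h replicate 2) and none fell, with sums of 1258 to 1329 CPM at 16 h and 1131 to 1228 CPM at 6 h. No tested gene of the T and NK list (9 of 23) or of the neutrophil and mast cell list (5 of 20) was called, and 2 of the 4 tested erythroid and megakaryocyte genes (of 16) fell (1 without vehicle 6 h replicate 1). These 3 lists summed to 94.8 to 102 CPM at 16 h and 84.9 to 99.8 CPM at 6 h for T and NK cells, 5.74 to 6.47 CPM and 5.78 to 7.30 CPM for neutrophils and mast cells, and 3.86 to 5.41 CPM and 4.84 to 7.86 CPM for the erythroid set. The part of these cells in the changes of other lists was not tested.

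Most cholesterol synthesis genes fell by small amounts. Of 25 listed cholesterol synthesis genes 24 were tested, 20 fell and 1 rose, with a median of -0.28. Hmgcs1, the synthase that feeds the pathway, had 231, 225 and 242 CPM in the vehicle 16 h libraries, against 302, 327 and 321 CPM in the vehicle 6 h libraries, a log2 difference of -0.44 (SE 0.035, adjusted p = 1.48e-18). Hsd17b7 changed by -0.43 (SE 0.079) and Pmvk by -0.40 (SE 0.077), both enzymes of the pathway. Insig1, which holds back sterol synthesis, was the gene that rose (0.11, SE 0.038). Its call was lost without vehicle 16 h replicate 1 or 2 and without vehicle 6 h replicate 1 or 3 (adjusted p from 0.0539 to 0.0841). It was also lost with library totals (0.153), with no expression filter (0.0928) and among only the libraries compared (0.0656). Of 75 nuclear genes of the respiratory chain 74 were tested, 33 fell, none rose and 41 were not called, with a median of -0.16. Ndufv1, a complex I subunit gene, had 33.6, 35.1 and 34.5 CPM in the vehicle 16 h libraries, against 38.4, 52.1 and 46.7 CPM in the vehicle 6 h libraries, a change of -0.41 (SE 0.075). Without vehicle 6 h replicate 2, the library with the lowest mitochondrial share, 21 of these genes fell. Of 79 ribosomal protein genes 77 were tested, 24 fell, 6 rose and 47 were not called. Their count of falls was 47 without vehicle 6 h replicate 1, 14 without vehicle 6 h replicate 3, 15 without vehicle 16 h replicate 3 and 45 with library totals, and 2 or 3 of them rose without vehicle 6 h replicate 2 or any 1 of the 16 h libraries. Rps2 fell furthest in the list, with 271, 277 and 271 CPM in the vehicle 16 h libraries, against 343, 416 and 395 CPM in the vehicle 6 h libraries, a change of -0.49 (SE 0.043).

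Sugar metabolism was mixed. Of 30 glycolysis and hypoxia genes, all tested, 4 rose and 12 fell, with a median of -0.15. Pfkfb3, which makes the activator of phosphofructokinase, had 247, 229 and 229.7 CPM in the vehicle 16 h libraries, against 115, 116 and 114 CPM in the vehicle 6 h libraries, giving a log2 change of 1.03 (SE 0.038, adjusted p = 3.61e-38). Tpi1, a glycolytic enzyme gene, changed by -0.60 (SE 0.078) and Vegfa, a hypoxia target, by -0.77 (SE 0.18). Of 34 lysosome genes, all tested, 16 rose and 3 fell (7 without vehicle 6 h replicate 1). Lpl, the lipoprotein lipase gene, had 21.4, 22.8 and 24.02 CPM in the vehicle 16 h libraries, against 5.83, 5.78 and 5.17 CPM in the vehicle 6 h libraries, a change of 2.02 (SE 0.13, adjusted p = 2.07e-22), the largest of the 18 genes of the lipid efflux list, of which 8 rose and 6 fell. Of 17 listed heat shock genes 15 were tested, 7 fell and none rose, led by Hsph1 (-0.34, SE 0.060).

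**Figure D3:**
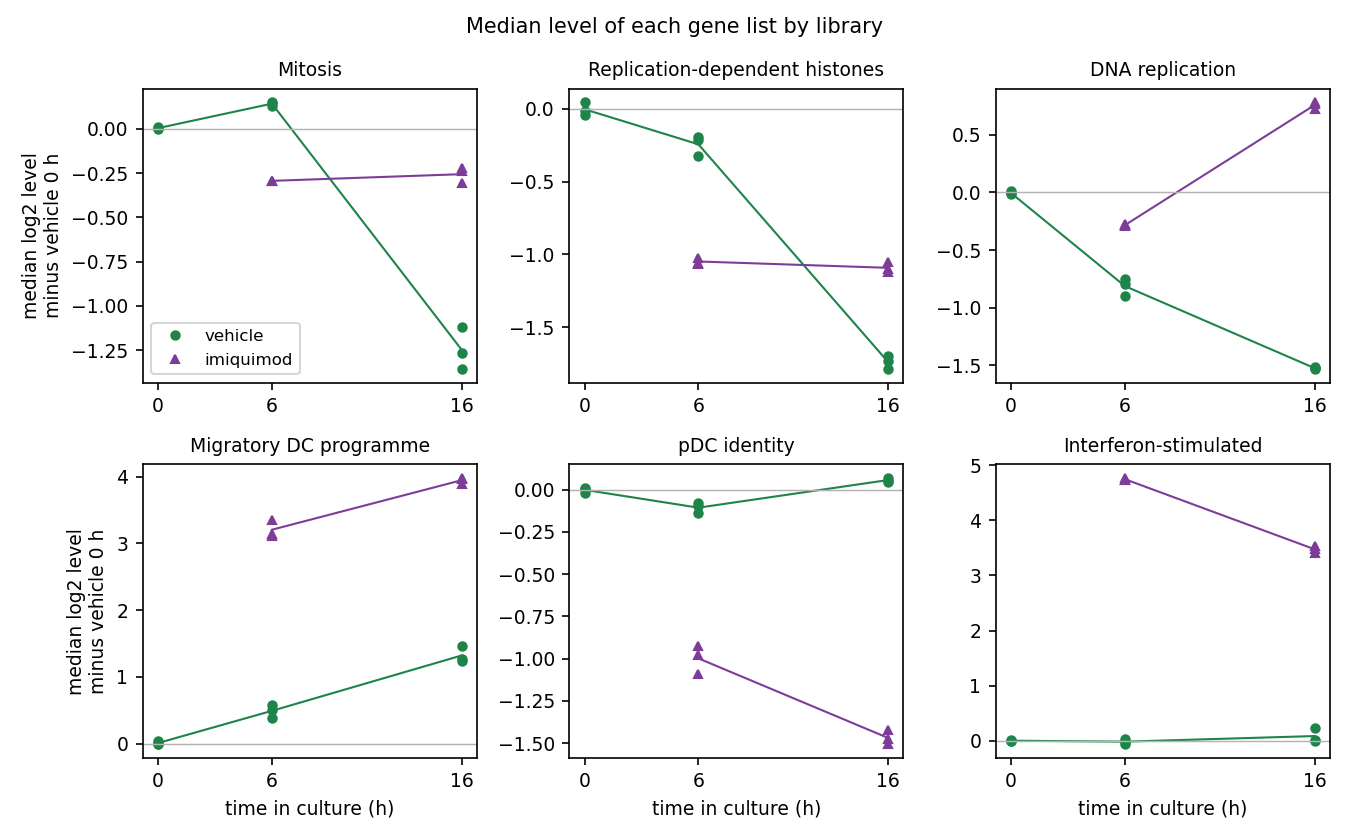
Median over the tested members of 6 gene lists of the log2 level (CPM plus 0.5) minus the mean of the vehicle 0 h libraries, 1 point a library, circles for vehicle at 0, 6 and 16 h and triangles for imiquimod at 6 and 16 h, lines joining group means. The mitosis list lies between -1.36 and -1.12 at vehicle 16 h and between 0.13 and 0.15 at vehicle 6 h, while the imiquimod libraries lie between -0.31 and -0.22 at both times.

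The same interval under imiquimod, with no library in common, went differently. The change in vehicle minus the change in imiquimod was called for 8468 genes, 56.9% of those tested, 4222 of them higher (28.4%) and 4246 lower (28.5%). Under imiquimod 9471 genes changed between 6 and 16 h (63.7%). Of the genes called in both intervals, 1494 moved the same way and 1864 opposite ways, and across all tested genes the changes had a Pearson r of 0.09, a description over genes that are not independent. Scaled by library totals, the difference was higher for 2257 genes and lower for 6951.

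DNA replication genes parted widely. All 50 had a lower change in vehicle than in imiquimod, with medians of -0.69 in vehicle and 1.06 in imiquimod. Mcm5 had a log2 change of -1.09 in vehicle and 1.31 in imiquimod, a difference of -2.41 (SE 0.087, adjusted p = 4.67e-36). Exo1, an exonuclease gene of replication and repair outside the list, differed by -2.80 (SE 0.20, adjusted p = 1.51e-21), with 3.12, 1.60 and 2.96 CPM in the vehicle 16 h libraries, against 7.23, 6.40 and 8.13 CPM in the vehicle 6 h libraries, and in imiquimod 29.8 CPM at 16 h and 12.1 CPM at 6 h. For mitosis genes 48 of 50 differences were lower and 2 higher, with medians of -1.53 in vehicle and -0.09 in imiquimod. Kntc1, a kinetochore gene outside the list, had -1.67 in vehicle and 0.98 in imiquimod, a difference of -2.65 (SE 0.12, adjusted p = 7.45e-31). Top2a had -1.82 in vehicle and -0.14 in imiquimod, a difference of -1.68 (SE 0.052, adjusted p = 2.63e-43).

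Interferon-stimulated genes were high under imiquimod at both times and lower at the later one, with a median level 3.40 to 3.54 above vehicle 0 h on the log2 scale at 16 h and 4.73 to 4.77 at 6 h, and 62 of 64 fell. Their median change was 0.11 in vehicle and -1.16 in imiquimod, and for 55 of 64 the difference was higher and for none lower. pDC identity genes had medians of 0.26 in vehicle and -0.76 in imiquimod, with 27 of 35 differences higher and 2 lower. Tcf4 had 0.26 in vehicle and -1.19 in imiquimod, a difference of 1.44 (SE 0.048, adjusted p = 8.22e-40). Ccr9 had no called difference, with 0.71 in vehicle and 0.76 in imiquimod (adjusted p = 0.479). Cholesterol synthesis genes had medians of -0.28 in vehicle and -1.69 in imiquimod, and all 24 differences were higher.

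For the migratory programme the median change was 1.14 in vehicle and 0.10 in imiquimod, and 27 of 31 differences were higher and 2 lower. Slc4a8 had 27.96 CPM at 16 h and 2.05 CPM at 6 h in vehicle and 28.1 CPM at 16 h and 2.08 CPM at 6 h in imiquimod, a difference of 0.01 (SE 0.26, adjusted p = 0.973). Ccr7 had 1.58 in vehicle and -0.24 in imiquimod, a difference of 1.82 (SE 0.056, adjusted p = 1.4e-43).

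**Figure D4:**
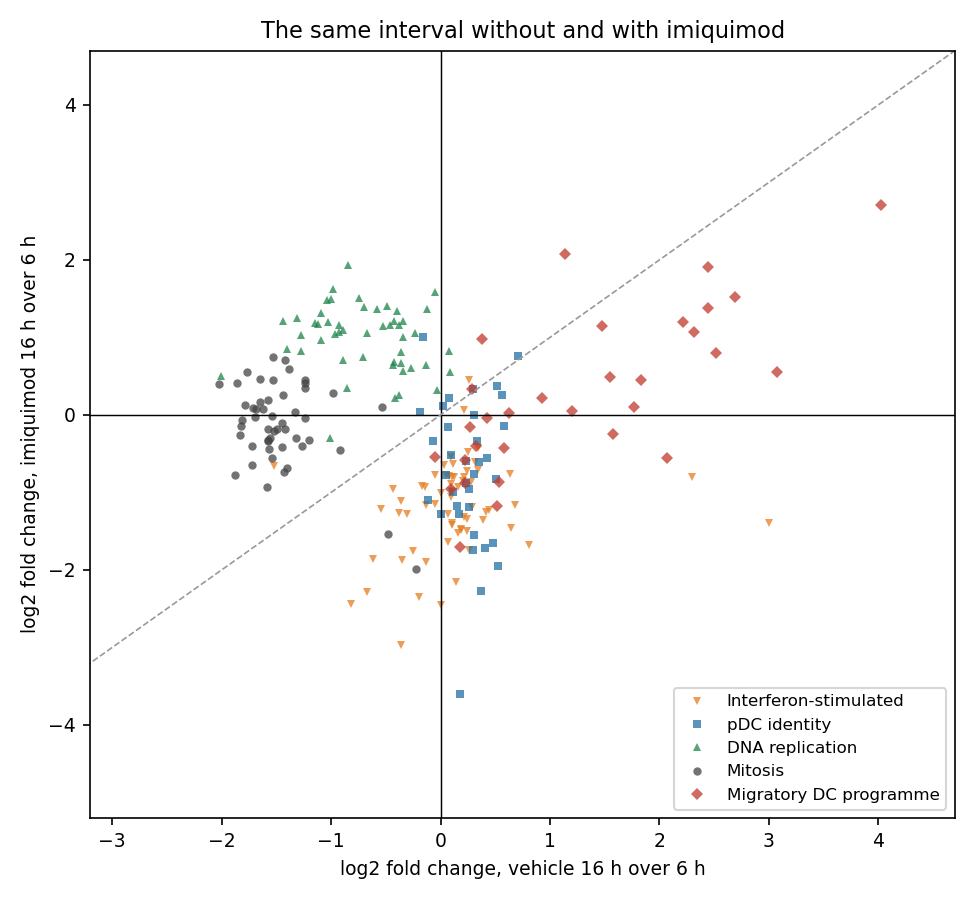
Log2 fold change between 6 and 16 h in vehicle (horizontal axis) and in imiquimod (vertical axis) for the tested members of 5 gene lists, with a dashed line where both are equal. DNA replication genes lie at the upper left (medians -0.69 in vehicle and 1.06 in imiquimod), mitosis genes at the left near 0 on the imiquimod axis, and interferon-stimulated and pDC identity genes mostly below the horizontal line.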

How the data were processed

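The authors deposited 1 table of raw read counts, whole numbers for 18 libraries, and it was used as supplied. The submitters' processing notes name STAR and mm10. The aligner version, counting program, strand setting and annotation release are not given in the sources used here. Coordinates are those of GENCODE M21 (GRCm38), which holds 97.8% of the table's versioned identifiers. Gene symbols are those of the table, and 100 are shared by more than 1 identifier.

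A robust quasi-likelihood model of all 18 libraries in 6 groups was made with edgeR 4.0.16 under R 4.3.3, after filterByExpr with a minimum count of 10 and TMM scaling. The common dispersion was 0.000951. SE is the absolute log2 fold change divided by the square root of F, which understates the error where a large change rests on few counts. The same code was first tested on simulated counts in which known genes had been altered. DESeq2 1.42.0 was an alternative, beside other scalings, other filters, fits of only the groups compared, a replicate block and each library left out. Totals per library ran from 10609741 to 12402967 in vehicle at 16 and 6 h and from 12193215 to 13447018 in imiquimod.

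Members, 40 gene lists and tests were chosen with earlier results of these data known, so the lists are no independent evidence of their own direction. Named genes are the 12 highest and 12 lowest called log2 fold changes with a mean of at least 10 CPM in the higher group and groups that do not overlap, a panel of 32 genes, some of the 4 called members of each list with the largest absolute change, and the 5 highest and 5 lowest differences between vehicle and imiquimod with a mean of at least 10 CPM. Gene models, clones, pseudogenes, small RNAs, rRNAs, mitochondrial genes and receptor segments were left out of the first and last. Some genes under these rules are not described. Genes outside them, named for a small count or for a promoter, were chosen after their values were seen. No set test was made. Promoter windows are RefSeq's for GRCm38.p6.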

Additional observations from a re-analysis of the deposited data

Results flagged for a closer look

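For 9 of the named genes the change between 6 and 16 h in vehicle differed from that in imiquimod by at least 3 on the log2 scale, with an adjusted p under 0.05 for the difference in edgeR's quasi-likelihood test. Gbp2 rose in vehicle and fell in imiquimod, with 273 CPM at 16 h and 715 CPM at 6 h, a difference of 4.40 (SE 0.12, adjusted p = 1.99e-47). Gbp5, of the same GTPase family, differed by 3.10 (SE 0.12, adjusted p = 2.51e-37), with 279 CPM at 16 h and 486 CPM at 6 h in imiquimod. Il12b differed by 4.06 (SE 0.13, adjusted p = 1.67e-41), with 313 CPM at 16 h and 899.8 CPM at 6 h in imiquimod. Grin2c, a glutamate receptor subunit gene, had 6.36 CPM at 16 h and 1.16 CPM at 6 h in vehicle and 9.66 CPM at 16 h and 54.5 CPM at 6 h in imiquimod, a difference of 4.94 (SE 0.24, adjusted p = 1.81e-30).

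In 4 others the change in vehicle alone was not called. The inducible heat shock genes Hspa1a and Hspa1b, near-identical copies whose single values are uncertain, differed by 4.73 (SE 0.32, adjusted p = 9.34e-20) and 4.61 (SE 0.20, adjusted p = 3.85e-34). Hspa1a had 2.48 CPM at 16 h and 3.01 CPM at 6 h in vehicle and 2.70 CPM at 16 h and 87.7 CPM at 6 h in imiquimod. Hspa1b had 4.96 CPM at 16 h and 5.03 CPM at 6 h in vehicle and 5.65 CPM at 16 h and 140.1 CPM at 6 h in imiquimod. Notch3, a receptor gene, had 1.72 CPM at 16 h and 1.73 CPM at 6 h in vehicle and 3.22 CPM at 16 h and 82.7 CPM at 6 h in imiquimod, a difference of 4.67 (SE 0.33, adjusted p = 7.22e-22). Cd209a, a cDC lectin gene, had 20.2, 25.1 and 21.9 CPM in the vehicle 16 h libraries, against 22.9, 22.2 and 24.1 CPM in the vehicle 6 h libraries, and 0 counts in every imiquimod 16 h library, so that its fitted difference of 5.62 (SE 1.11, adjusted p = 1.09e-05) depends on the prior count of the fit and is no measure of size.

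Serpinf1, which encodes a secreted serpin, fell in vehicle to 2.95 CPM at 16 h, against 4.80 CPM at 6 h, and rose in imiquimod, with 27.8 CPM at 16 h and 5.64 CPM at 6 h, a difference of -3.001 (SE 0.22, adjusted p = 3.7e-21).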

How the results depend on the processing

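No gene called in the comparison of vehicle 16 h with vehicle 6 h was called in the opposite direction under any of the 14 alternatives, with 3567 genes called by DESeq2's Wald test, 3739 without vehicle 6 h replicate 2, 4882 without vehicle 6 h replicate 1, and 3706 to 3913 without each of the other vehicle libraries. The replicate block, for libraries that share only a number, called 4361 genes, 4345 of them among the 4470, and same-numbered vehicle libraries did not deviate together (correlations of -0.024, -0.003 and 0.022). The count of mitosis genes called lower was 49 under each setting. With library totals the difference between vehicle and imiquimod was higher for 2257 genes and lower for 6951, the interferon-stimulated list had 8 lower, and the pDC identity list had 2 lower and a median of 0.22. With no expression filter the pDC list had 2 lower and the migratory list a median of 0.91. Among only the libraries compared, 3714 of 13657 tested genes were called, the migratory median was 1.04 and 3 interferon-stimulated genes were lower. The causes were not tested.

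With 1 vehicle library left out, medians ran from -0.70 to -0.63 (DNA replication, with 0 to 1 genes higher), -1.57 to -1.48 (mitosis), 0.23 to 0.40 (maturation), 1.00 to 1.19 (migratory) and 0.25 to 0.28 (pDC identity, with 1 to 2 lower), and the interferon-stimulated list had 10 to 20 higher and 2 to 5 lower. Leaving out single imiquimod libraries and the settings for the shorter lists were added after seeing the data. Genes near 0 turned: Flt3 had -0.0014 with library totals, Notch3 had 0.0015 with DESeq2 size factors and 0.0020 in DESeq2's Wald test. Over the same 6 omissions log2 fold changes ran from -0.020 to 0.13 (Bst2), -0.13 to 0.026 (Cd209a), -0.22 to 0.23 (Notch3), -0.18 to 0.074 (Hspa1b) and -0.10 to 0.029 (Tmem176b). Irf8 and Itgax were called with DESeq2 size factors (adjusted p = 0.0377 and 0.0396). Calls were also made for Cdkn1b without vehicle 16 h or 6 h replicate 1, Bst2 and Irf8 without vehicle 6 h replicate 2, Itgax without vehicle 6 h replicate 1 and Ccl22 without vehicle 16 h replicate 2. Il6 rests on 26 counts over the 3 libraries at 16 h and 5 at 6 h.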

Other observations

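Other groups held a few large changes among many small ones. Over all tested genes 30.0% were called, and the Notch, apoptosis, immediate-early and p53 counts given here lie near that share. Of 22 listed Notch pathway genes 18 were tested, 2 rose and 4 fell, and the ligands went opposite ways. Jag1 had 9.46, 7.00 and 8.01 CPM in the vehicle 16 h libraries, against 2.64, 2.31 and 2.22 CPM in the vehicle 6 h libraries, giving a log2 change of 1.76 (SE 0.17, adjusted p = 8.55e-15). Jag2 had 3.58, 3.28 and 3.05 CPM in the vehicle 16 h libraries, against 7.08, 7.02 and 7.22 CPM in the vehicle 6 h libraries, a change of -1.10 (SE 0.16, adjusted p = 4.3e-08). Of 18 TGF-beta pathway genes, all tested, 6 rose and 3 fell (1 without vehicle 16 h replicate 1), where Tgfbi, a matrix protein gene, changed by -0.89 (SE 0.072) and Tgfbr1, a receptor chain gene, by 0.48 (SE 0.033). Of 25 listed chemokine receptor and homing genes 22 were tested, 11 rose and 5 fell. Of 18 circadian clock genes, all tested, 8 rose and none fell (1 fell without vehicle 16 h replicate 2), with a median of 0.26, and Bhlhe40, a repressor of the clock, rose by 0.42 (SE 0.042).

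Among 34 listed apoptosis regulators 32 were tested, 6 rose and 4 fell (2 without vehicle 16 h replicate 3), beside 14.6% and 15.4% of all tested genes. Bcl2, a survival gene, had 33.8, 32.8 and 38.3 CPM in the vehicle 16 h libraries, against 52.1, 45.8 and 51.3 CPM in the vehicle 6 h libraries, a change of -0.51 (SE 0.060, adjusted p = 5.18e-11). Bcl2l11, the gene of the death promoter Bim, had 82.9, 77.6 and 82.2 CPM in the vehicle 16 h libraries, against 61.4, 59.4 and 61.1 CPM in the vehicle 6 h libraries, a change of 0.42 (SE 0.048, adjusted p = 2.44e-11). Of 25 listed immediate-early genes 24 were tested, 2 rose (1 without vehicle 16 h replicate 3) and 6 fell. Between 0 and 6 h 20 of the 24 had fallen with a median of -1.29, beside 4003 of all 14876 tested genes. Nr4a1 averaged 70.8, 11.8 and 9.04 CPM at 0, 6 and 16 h. Of 25 listed progenitor genes 23 were tested, 6 rose and 3 fell, with Il7r higher by 0.43 (SE 0.034) and Kit by 0.29 (SE 0.040). ER chaperone and unfolded protein response genes split 7 higher and 6 lower of 24, with Dnajb9 higher by 0.68 (SE 0.063) and Xbp1 by 0.36 (SE 0.032). Amino acid response and tRNA synthetase genes split 1 higher and 11 lower of 26 tested (28 listed), where Slc7a11, a cystine transporter gene, rose by 0.92 (SE 0.15) and Psat1, of serine synthesis, changed by -0.60 (SE 0.070). Ribosome biogenesis genes split 2 higher and 10 lower of 32, with 6 lower without vehicle 16 h replicate 1, and 1 higher without vehicle 16 h replicate 2 or vehicle 6 h replicate 1. Targets of p53 split 3 higher and 4 lower of 23 tested (24 listed), with 2 lower without vehicle 16 h replicate 2 or vehicle 6 h replicate 3. Of 13 mitochondrial mRNAs 7 were tested and 2 rose, a count of 0 without vehicle 16 h replicate 2, 7 without vehicle 6 h replicate 1 and 1 without any other of the 6 libraries.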
